A study of Mus musculus with 4 samples.

Results

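The carboxylesterase genes of the Ces1, Ces2 and Ces3 groups were examined in total liver RNA of mice. The members were taken by symbol from the deposited count table and were Ces1c, Ces1d, Ces1e, Ces1f, Ces1g, Ces2a, Ces2b, Ces2e, Ces3a and Ces3b, which are 10 of the 46603 gene identifiers counted. The question of the comparison was how these genes differ in the liver between control mice and mice made to lack HuR in hepatocytes while on a lipid-rich diet. HuR, the product of Elavl1, is an RNA binding protein that affects the stability and translation of many mRNAs.

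All 4 mice were HuR flox/flox mice, male by the labels and on the C57BL/6 J background, and their age is not given in the sources used here. The control mice, 1 and 2, received AAV8-TBGP-GFP, and mice 3 and 4, labelled HuR hKO, received AAV8-TBGP-Cre by the tail vein. TBGP is the thyroxine-binding globulin promoter, which is active in hepatocytes, so the other cells of the liver were not targeted by the Cre. Both groups had free access to a Western diet with 42% of its energy from fat and 0.1% cholesterol, and to water with 23.1 g/L fructose and 18.9 g/L glucose (together called WDSW), for 4 weeks. There was 1 library for each mouse and n = 2 for each group throughout.

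The libraries held between 13032095 and 19715577 counts on genes, and the deepest was that of mouse 4. Levels below are CPM, read counts scaled to the size of the library, on TMM-scaled library sizes, and a count of 0 allows up to 3 counts, or 0.159 to 0.226 CPM, for counting error only. Elavl1, the gene the Cre was meant to delete, went against the labels: its counts were 377 and 347 in control mice 1 and 2, and 541 and 648 in mice 3 and 4, where they should be lower. The log2 fold change of Elavl1 was 0.41 (SE 0.135, edgeR adjusted p = 0.545). These counts cover the whole gene, and the deleted part of it is not given in the sources used here, so the groups are called by their labels throughout. Whether the labels or the columns of the table were exchanged was not tested. Every direction, fold change and percent of control below follows the labels, and each log2 fold change would change its sign if they had been exchanged. Of 12 hepatocyte marker symbols, 11 matched a symbol of the table. Their summed level was 86740 and 86640 CPM in the control mice and 81250 and 93150 CPM in mice 3 and 4, led by Alb, the gene of serum albumin.

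Carboxylesterases are serine hydrolases that cleave ester bonds in drugs, pesticides and lipids, and the liver is their main site. Most of them are held in the lumen of the endoplasmic reticulum, where some hydrolyse stored triacylglycerol on the way to very low density lipoprotein (VLDL), while others are secreted into plasma. In the mouse the human CES1 and CES2 genes each correspond to a row of tandem copies, so that close relatives lie side by side. The Ces1 genes, with Ces5a, form one cluster, between 93020214 and 93535830 on chromosome 8 of GRCm38, on the minus strand. The Ces2 and Ces3 genes with Ces4a form another, on the plus strand between 104734003 and 105150109 of the same chromosome.

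The coding stretch around the catalytic serine shows how the members are related, and for that reason it is given for each. The sequences are those of GENCODE M21 coding models, 5′ to 3′ on the coding strand, and capitals run from the codon of the glycine that comes before the catalytic serine to the glycines after it, as found by a pattern that fixes some of the letters of these codons. Each member had 1 match in its coding frame. The stretches of the Ces1 and Ces3 genes span the junction of exons 5 and 6, so their genomic ranges include an intron, and those of the Ces2 genes lie within exon 5.
Ces1c (chr8:93120370-93123156, minus strand): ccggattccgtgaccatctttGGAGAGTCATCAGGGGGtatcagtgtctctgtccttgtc
Ces1d (chr8:93186116-93187799, minus strand): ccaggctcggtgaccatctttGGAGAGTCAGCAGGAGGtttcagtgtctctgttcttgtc
Ces1e (chr8:93215148-93217555, minus strand): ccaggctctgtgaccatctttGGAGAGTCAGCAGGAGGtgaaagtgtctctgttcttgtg
Ces1f (chr8:93268089-93270030, minus strand): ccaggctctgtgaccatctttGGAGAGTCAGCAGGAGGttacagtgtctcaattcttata
Ces1g (chr8:93326865-93328434, minus strand): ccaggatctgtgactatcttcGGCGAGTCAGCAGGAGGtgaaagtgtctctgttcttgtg
Ces2a (chr8:104737389-104737448, plus strand): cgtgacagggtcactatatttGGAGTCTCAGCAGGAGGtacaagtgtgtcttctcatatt
Ces2b (chr8:104834921-104834980, plus strand): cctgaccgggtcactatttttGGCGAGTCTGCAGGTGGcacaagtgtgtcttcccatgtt
Ces2e (chr8:104929794-104929853, plus strand): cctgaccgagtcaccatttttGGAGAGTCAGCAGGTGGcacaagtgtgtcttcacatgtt
Ces3a (chr8:105051565-105051734, plus strand): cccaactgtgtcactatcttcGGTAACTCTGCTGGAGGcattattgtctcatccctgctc
Ces3b (chr8:105086655-105086824, plus strand): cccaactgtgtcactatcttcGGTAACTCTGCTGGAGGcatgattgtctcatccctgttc

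Ces3a and Ces3b shared 58 of these 60 bases, Ces2b shared 55 with Ces2e and 49 with Ces2a, and Ces1c shared between 46 and 52 with the other Ces1 members. Over the whole coding sequence, Ces3a and Ces3b were 95.3% identical. Pairs within the Ces2 members were 83.3% to 84.0% identical and pairs within the Ces1 members 74.6% to 81.5%, whereas pairs from different groups had at most 65.6%. Among Ces genes that are no members, Ces2c was 92.1% identical to Ces2b and Ces1b was 91.1% identical to Ces1c. Reads from stretches that are the same in both genes can only be divided between them by the counting, and of the 100-base words in their transcripts 6.88% of those of Ces3a and 7.04% of those of Ces3b were found in the other gene. The values were 8.13% for Ces2a, shared with Gm7208, 1.03% for Ces1c, shared with Ces1b, and 0.088% for Ces2b, and no such word of Ces1d, Ces1e, Ces1f, Ces1g or Ces2e was found in another gene. The length of the reads is not given in the sources used here, and with 50-base words the shares were larger. They were 25.6% for Ces3a, 26.2% for Ces3b, 17.3% for Ces2a, 13% for Ces1c and 9.66% for Ces2b, which shared most with Ces2c. They lay between 0.903% and 3.30% for Ces1d, Ces1e, Ces1f, Ces1g and Ces2e.

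Against the controls, the Ces3 pair and Ces2b had lower levels in both mice labelled HuR hKO, and the groups did not overlap for these 3 members. Ces1c, Ces1d, Ces1e, Ces1f, Ces1g, Ces2a and Ces2e had overlapping groups. Over all 13001 genes tested, 18.8% had groups that did not overlap in the lower direction, and 19.3% in the higher, which no member did. An unadjusted p under 0.05 with lower values was found for the same 3 members and for 3.39% of all genes (7.43% in either direction). The limit used in the study, a fold of at least 1.8 either way with an unadjusted p under 0.05, was passed by Ces2b alone on the lower side, where 0.915% of all genes lay, and by no member on the higher side, where 1.21% lay (2.12% in either direction). None of the 10 members passed an adjusted p of 0.05 in the edgeR quasi-likelihood test, which 0.0231% of all genes (3 genes) did, whereas Ces2b, Ces3a and Ces3b passed it in the DESeq2 Wald test, Ces2b in the edgeR exact test, and Ces2b and Ces3b with no filter on low counts. These settings also called more of all genes, 85, 119 and 161 in that order. The estimate was below 0 for 9 of the 10 members, against 49.7% of all genes, and the median over the members was -0.12 against 0.00 over all genes tested.

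**Figure D1:**
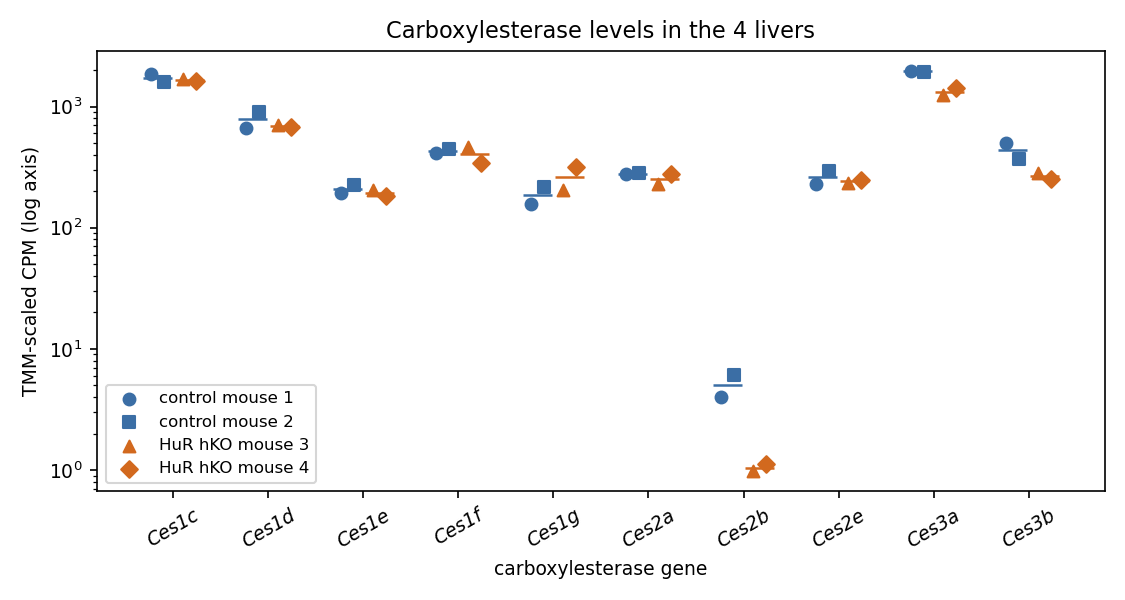
TMM-scaled CPM (log axis) of the 10 carboxylesterase genes in each mouse, with blue for the controls, orange for the libraries labelled HuR hKO, and a horizontal line at each group's mean of 2 mice. Ces2b lies far under the other members, and for Ces2b, Ces3a and Ces3b both orange points are below both blue points.

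Ces3a encodes a liver esterase, also called esterase 31. It lies at chr8:105048601-105058413. Its level was 1972 and 1926 CPM in control mice 1 and 2, and 1240 and 1412 CPM in mice 3 and 4. Both control values were thus above both values of the other group. The group means were 1949 ± 32.4 and 1326 ± 122 CPM (SD), a ratio of the means of 68.1%. The log2 fold change was -0.56 (SE 0.160, unadjusted p = 0.00821, edgeR adjusted p = 0.450), so the difference did not pass after adjustment.

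Ces3b, its neighbour and near copy at chr8:105083753-105093929, had a lower level than Ces3a. Its values were 501 and 370 CPM in the control mice and 280 and 251 CPM in mice 3 and 4. The control mice differed more from each other than mice 3 and 4 did, but the groups did not overlap. The mean level was 61.0% of the control mean, and the log2 fold change of the fit was -0.71 (SE 0.175, unadjusted p = 0.00343, edgeR adjusted p = 0.360). Without control mouse 1, the higher of the controls, the value was -0.49. Since the pair shares sequence, the summed level bears less on how reads were divided between them. It was 2473 and 2296 CPM in the controls against 1521 and 1664 CPM in mice 3 and 4, a ratio of the means of 66.8%.

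RefSeq gives a promoter window for 6 of the 10 members, Ces3b among them and Ces3a not. The window of Ces3b is printed because it is that of a gene with separated groups. It covers 250 bases before the transcription start and 50 after it in GRCm38.p6, on the plus strand.
Ces3b (chr8:105083505-105083804): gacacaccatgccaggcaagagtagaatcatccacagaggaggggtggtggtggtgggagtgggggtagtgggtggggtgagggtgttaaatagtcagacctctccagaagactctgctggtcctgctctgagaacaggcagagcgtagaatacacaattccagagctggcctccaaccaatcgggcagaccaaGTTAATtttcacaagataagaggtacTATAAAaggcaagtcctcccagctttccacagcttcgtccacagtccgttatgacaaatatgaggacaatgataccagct

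The capitals mark GTTAAT, a half-site letter string of the hepatocyte factor HNF1, and TATAAA, the TATA box. Besides these, a nuclear receptor half-site was searched as AGGTCA, and the core motif of forkhead factors was searched as TGTTTAC. All 4 were searched on both strands, and the matches in this window do not overlap. Of 32851 promoter windows of the same length, 13.6% held TATAAA and 7.10% held GTTAAT. Among the other members, Ces1g held TATAAA and Ces2a held AGGTCA, which 16.3% of all windows held. No match to TGTTTAC, which 3.65% of all windows held, was found in the windows of the members. These are matches of letters and not binding sites.

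Ces2b differed most among the members in its fold change, and it is the scarcest of them. It lies at chr8:104831572-104840093. Its counts were 53 and 81 in control mice 1 and 2, and 14 and 21 in mice 3 and 4, which are 3.99 and 6.05 CPM against 0.977 and 1.12 CPM. Every value was above the level that a count of 0 allows, and the lower control value was more than 3 times the higher value of the other group. The mean level was 20.8% of the control mean. The log2 fold change of the fit was -2.25 (SE 0.356, 95% interval -3.06 to -1.43, unadjusted p = 0.000205, edgeR adjusted p = 0.103). This was rank 22 by p among the 13001 genes tested and rank 11 by the fold change from the lowest. Ces2b was among the genes chosen with earlier results of these data known, so its selection was not independent of these samples.

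The value of Ces2b passed an adjusted p of 0.05 under the edgeR exact test (adjusted p = 1.65e-05), the DESeq2 Wald test (adjusted p = 0.00381), no filter on low counts (adjusted p = 0.000284) and no scaling for library size (adjusted p = 0.00177). It also passed when control mouse 1 was left out (adjusted p = 0.0246). Over every alternative its adjusted p ranged from 1.65e-05 to 0.501, and its fold change was below 0 in each.

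The other Ces2 members did not share this difference in their own values. Ces2a, a liver and intestine hydrolase of di- and triacylglycerol at chr8:104734003-104741634, was at 276 and 282 CPM in the controls and at 230 and 277 CPM in mice 3 and 4. Ces2e, a gene of the same row at chr8:104926260-104934672, was at 228 and 293 CPM in the controls and at 235 and 248 CPM in mice 3 and 4. Both genes had overlapping groups. The log2 fold change was -0.14 for Ces2a (95% interval -0.47 to 0.19) and -0.11 for Ces2e (95% interval -0.47 to 0.25), so that a change as large as that of Ces2b lies outside both intervals. With 1 mouse left out, the value of Ces2a lay between -0.28 and -0.028. The intervals of Ces2a and Ces2b, and of Ces2e and Ces2b, did not overlap, and the difference between these genes was not itself tested.

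**Figure D2:**
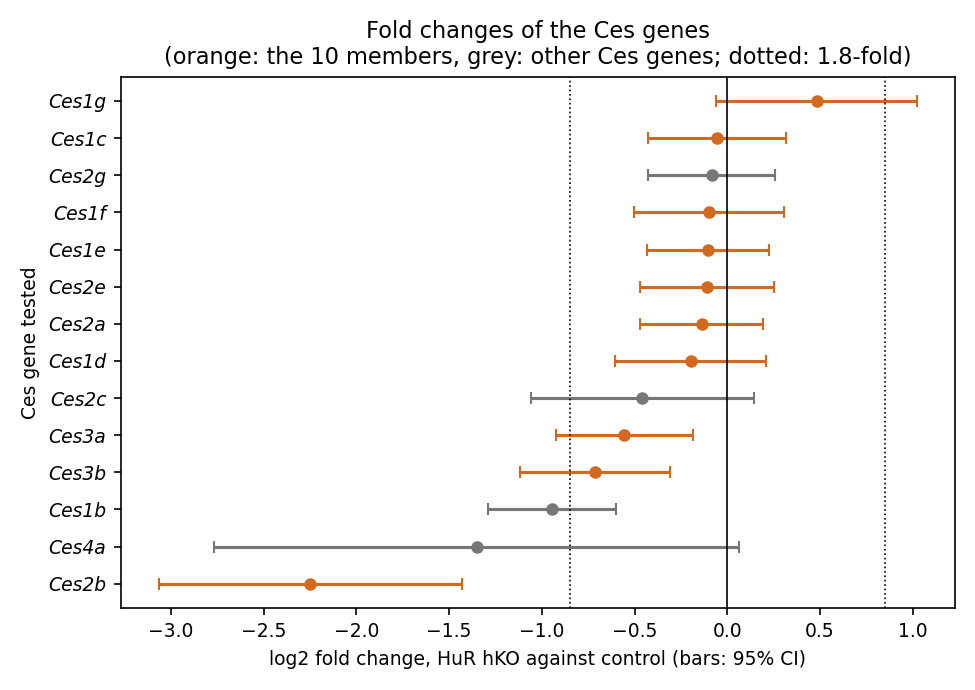
Log2 fold change of the libraries labelled HuR hKO against control for the 14 Ces genes tested (edgeR quasi-likelihood fit), with bars for the 95% interval, orange for the 10 members and grey for other Ces genes. Dotted lines mark a fold of 1.8, and the intervals of Ces2b, Ces1b, Ces3b and Ces3a lie wholly below 0.

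Of the Ces1 members, Ces1c, Ces1d, Ces1e and Ces1f had estimates between -0.20 and -0.056 on the log2 scale, and that of Ces1g was 0.48, with overlapping groups for all 5. Ces1c, the secreted carboxylesterase of mouse plasma at chr8:93099015-93131283, was at 1839 and 1594 CPM in the controls and at 1693 and 1610 CPM in mice 3 and 4. Its log2 fold change was -0.056 (95% interval -0.43 to 0.32, edgeR adjusted p = 0.962). The values of mice 3 and 4 lay between those of the controls.

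Ces1d, known as triacylglycerol hydrolase, frees lipid from hepatocyte stores for VLDL and lies at chr8:93166068-93197838. It was at 669 and 902 CPM in the controls and at 700 and 672 CPM in mice 3 and 4. Control mouse 2 stood above the other 3 mice, which lay within a narrow range. The log2 fold change was -0.20 (95% interval -0.60 to 0.21), and it was 0.038 without control mouse 2.

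Ces1e, also called egasyn, holds β-glucuronidase in the endoplasmic reticulum and lies at chr8:93201218-93229619. It was at 192 and 226 CPM in the controls and at 205 and 184 CPM in mice 3 and 4, a log2 fold change of -0.10 (95% interval -0.43 to 0.23). Ces1f, another liver gene of this row at chr8:93256236-93279747, was at 416 and 445 CPM in the controls and at 465 and 339 CPM in mice 3 and 4. Here the highest and the lowest value both came from the group labelled HuR hKO. The log2 fold change of Ces1f was -0.10 (95% interval -0.50 to 0.30), and it was 0.11 without mouse 4.

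Ces1g, an endoplasmic reticulum lipase whose loss in mice raises blood and liver lipids, was the 1 member with an estimate above 0. Its mean level was 139.6% of the control mean. It lies at chr8:93302369-93337308 and was at 156 and 217 CPM in the controls and at 203 and 317 CPM in mice 3 and 4. The value of mouse 3 lay between those of the controls, and only mouse 4 was above both. The log2 fold change was 0.48 (SE 0.235, unadjusted p = 0.0738, edgeR adjusted p = 0.684). It was 0.13 without mouse 4 and 0.25 without control mouse 1, but 0.75 without mouse 3 (unadjusted p = 0.0153) and 0.74 without control mouse 2 (unadjusted p = 0.0178), so its size rested on single mice.

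With no scaling for library size the median of all genes moved to 0.31 on the log2 scale, since mouse 4 was sequenced more deeply. Ces1c, Ces1d, Ces1e, Ces1f, Ces2a and Ces2e then had estimates above 0, between 0.11 and 0.25, all under that median. Ces3a and Ces3b stayed below 0, at -0.23 and -0.41. The direction given for Ces1c, Ces1d, Ces1e, Ces1f, Ces2a and Ces2e thus holds only relative to the bulk of genes.

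**Figure D3:**
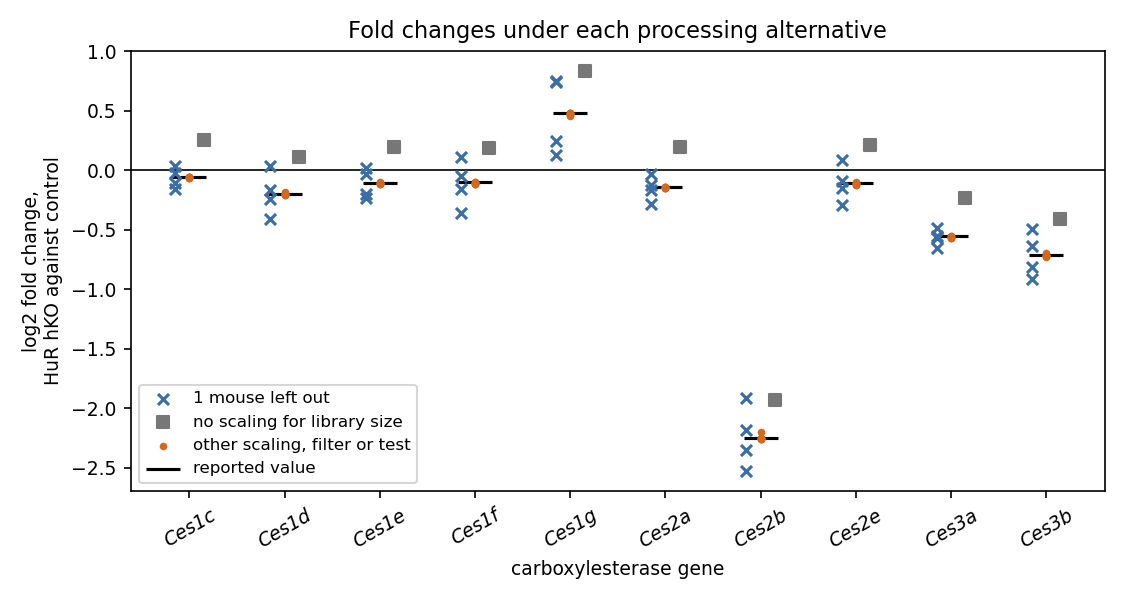
Log2 fold change of each member as reported (black line), with 1 mouse left out (crosses), with no scaling for library size (squares) and with the other scalings, filters and tests (dots). Ces2b, Ces3a and Ces3b are below 0 under every alternative drawn, and Ces1c, Ces1d, Ces1e, Ces1f and Ces2e cross 0 when 1 mouse is left out.

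The make-up of the family within each liver does not depend on how libraries are scaled. In reads per kilobase of transcript, taken as a share of the sum over the 10 members, Ces1c made up 32.3% (SD 3.01 over the 4 mice), Ces3a 27.6% (SD 3.72), Ces1d 12.8% (SD 1.58) and Ces1f 7.56% (SD 1.13). They were followed by Ces3b with 5.02%, Ces2a with 4.74%, Ces1e with 3.40%, Ces1g with 3.32% and Ces2e with 3.25%. Ces2b came last, with 0.0295%. The order of the mean shares differed between the groups: in the controls Ces3a had a mean share of 30.7% and Ces1c 30.2%, and in mice 3 and 4 Ces3a had 24.6% and Ces1c 34.3%. Ces3b was above Ces2a in the controls (5.83% and 4.58%) and below it in mice 3 and 4 (4.2% and 4.9%), and the mean of Ces1g was below that of Ces2e in the controls (2.51% and 3.11%) and above it in mice 3 and 4 (4.13% and 3.40%), through mouse 4 alone. By mouse, Ces1c was above Ces3a in 3 of 4 mice, Ces3b above Ces2a in 2, Ces1e above Ces1g in 3, and Ces1g above Ces2e in only 1. Ces3a was above Ces1d, Ces1d above Ces1f, Ces1f above Ces3b, Ces2a above Ces1e, and Ces2e above Ces2b in all 4 mice.

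The Ces3 pair together took 37.7% and 35.3% of the family in control mice 1 and 2, and 27.5% and 30.1% in mice 3 and 4. The Ces1 members took 55.1% and 56.5% in the controls and 64.7% and 61.1% in mice 3 and 4. The shares of the Ces3 pair did not overlap between the groups of mice. The shares add up to the whole, so the share of the Ces1 members is largely the complement of that of the Ces3 pair, and the summed level of the Ces1 members was 3328 CPM in the controls and 3194 CPM in mice 3 and 4. The shares of the Ces2 members overlapped, at 7.27% and 8.19% against 7.79% and 8.83%. Per kilobase, Ces3a stood at 0.958 and 1.08 times Ces1c in the controls and at 0.655 and 0.784 times in mice 3 and 4, and Ces3b at 0.207 and 0.177 times against 0.126 and 0.119 times.

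**Figure D4:**
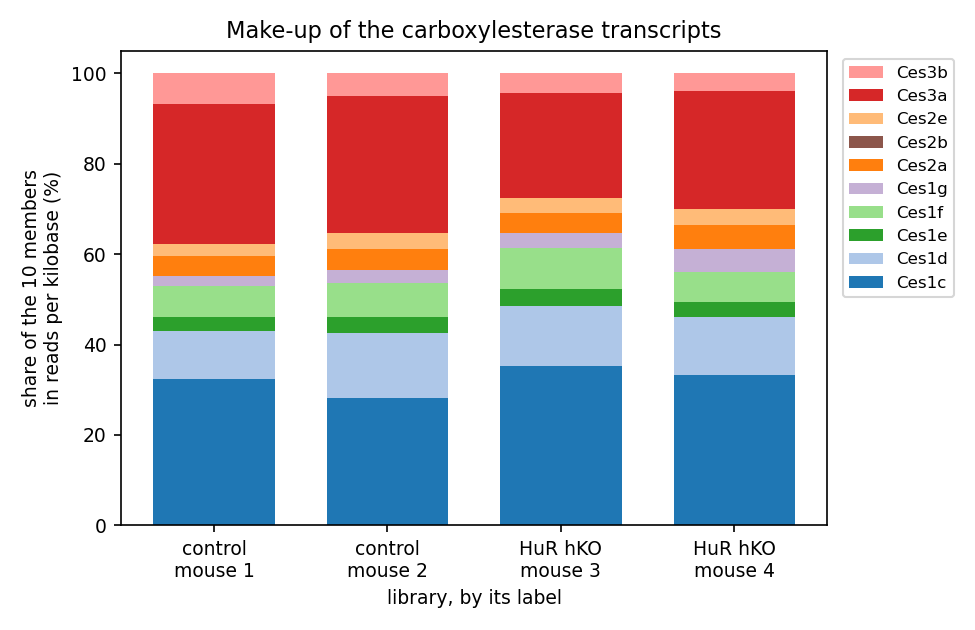
Share of each member in the summed reads per kilobase of the 10 members (%), as 1 stacked bar for each mouse. Ces1c and Ces3a are the 2 widest layers in every bar, and the layers of the Ces3 pair are narrower in mice 3 and 4 than in mice 1 and 2.

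Summed over the 10 members, the level was 6253 and 6261 CPM in the controls and 5252 and 5311 CPM in mice 3 and 4, a ratio of the means of 84.4%. Ces3a alone accounted for most of that gap, with a difference in group means from 1949 to 1326 CPM. The Ces1 sum was 3272 and 3385 CPM against 3266 and 3122 CPM, a ratio of 96.0%, and the Ces2 sum was 508 and 581 CPM against 466 and 526 CPM, a ratio of 91.1%. With no scaling for library size the log2 ratio for all 10 turned from -0.24 to 0.071, and that of the Ces3 pair went from -0.58 to -0.26. No p is given for these sums. In whole liver, fewer cells of a type and less RNA per cell cannot be told apart.

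The table held 10 more Ces genes, of which 4 had enough counts to be tested. Ces1b, the neighbour of Ces1c at chr8:93056728-93080017, had 24.5 and 28.8 CPM in the controls and 14.2 and 13.5 CPM in mice 3 and 4. These groups did not overlap, and the log2 fold change was -0.94 (SE 0.150, unadjusted p = 0.000220, edgeR adjusted p = 0.103), past the limit of the study. It was under that limit without control mouse 2 (-0.82) and with no scaling for library size (-0.63). It passed an adjusted p of 0.05 under the edgeR exact test (adjusted p = 0.000283), the DESeq2 Wald test (adjusted p = 0.0112), no filter on low counts (adjusted p = 0.00195) and without control mouse 1 (adjusted p = 0.0365), and its adjusted p ranged up to 0.660 over the alternatives. Ces2c, a lipid hydrolase of the Ces2 row, had 94.2 and 146 CPM in the controls and 66.8 and 108 CPM in mice 3 and 4, with overlapping groups and a log2 fold change of -0.46 (edgeR adjusted p = 0.734). That value depended on single mice, with -0.11 without control mouse 2, -0.17 without mouse 3, -0.75 without control mouse 1 and -0.84 without mouse 4.

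Ces2g had 49.4 and 41.4 CPM in the controls against 39.9 and 45.7 CPM, a log2 fold change of -0.084. Ces4a had 64 and 18 counts in the controls against 23 and 16 counts, so its log2 fold change of -1.35 (edgeR adjusted p = 0.674) rested on control mouse 1, and it was -0.17 without that mouse and -2.00 (unadjusted p = 0.00129) without control mouse 2. The other 6 were at or near 0: Ces1h and Ces5a, the latter a urinary esterase of the kidney, had no count in any mouse. Ces1a had 5, 1, 0 and 2 counts in mice 1 to 4, Ces2f had 1, 0, 0 and 0, Ces2h had 3, 3, 1 and 7, and the pseudogene Ces2d-ps had 0, 7, 2 and 12.

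Ces1b and Ces1c are printed side by side because their promoter windows are much alike and their values differ. Of the 300 bases of each RefSeq window, 273 were aligned without a gap, and 255 of these, or 93.4%, were identical. The log2 fold change was -0.94 for Ces1b and -0.056 for Ces1c. Both windows are on the minus strand and held none of the 4 motifs searched, so no letter is in capitals. RefSeq gives a further start for Ces1b, which is not printed.
Ces1b (chr8:93079891-93080190): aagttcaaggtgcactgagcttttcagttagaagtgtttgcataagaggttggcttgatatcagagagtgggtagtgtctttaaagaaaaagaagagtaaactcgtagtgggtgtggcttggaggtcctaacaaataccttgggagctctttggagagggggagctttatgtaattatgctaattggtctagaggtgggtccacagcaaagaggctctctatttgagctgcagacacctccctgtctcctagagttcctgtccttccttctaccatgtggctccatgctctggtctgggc
Ces1c (chr8:93131234-93131533): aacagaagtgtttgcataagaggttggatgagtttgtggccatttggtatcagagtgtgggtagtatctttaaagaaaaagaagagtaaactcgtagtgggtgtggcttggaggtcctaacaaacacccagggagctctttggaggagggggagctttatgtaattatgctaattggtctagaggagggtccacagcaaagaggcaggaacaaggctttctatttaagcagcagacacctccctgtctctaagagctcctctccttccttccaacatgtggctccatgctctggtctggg

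Along the Ces2 and Ces3 cluster, the estimates of the tested genes in their order were -0.14 for Ces2a, -2.25 for Ces2b, -0.46 for Ces2c, -0.11 for Ces2e, -0.084 for Ces2g, -0.56 for Ces3a, -0.71 for Ces3b and -1.35 for Ces4a. Ces2c and Ces4a, which had overlapping groups, thus lie beside Ces2b and Ces3b. No tested gene of another family lay inside either cluster. Of the 5 nearest tested genes on each side of the Ces2 and Ces3 cluster, 4 of 10 had an estimate below 0, the range was -0.32 to 0.36, and none had an unadjusted p under 0.05. Around the Ces1 cluster 5 of 10 were below 0, the range was -0.39 to 1.67, and 1 had an unadjusted p under 0.05 (edgeR adjusted p = 0.653). That gene was Mt2, a metallothionein that binds zinc.

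**Figure D5:**
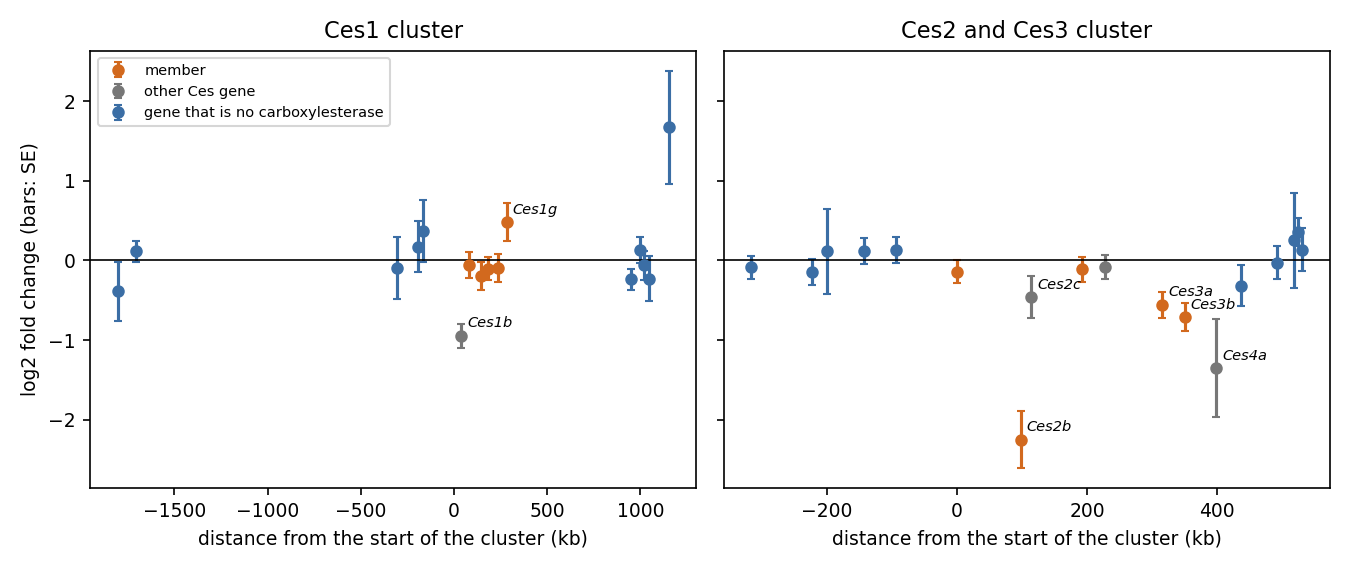
Log2 fold change (bars: SE) of tested genes against the distance of each gene from the start of its cluster in kb, for the Ces1 cluster (left) and the Ces2 and Ces3 cluster (right), with orange for members, grey for other Ces genes and blue for the 5 nearest tested genes on each side. Ces genes over 0.4 from 0 are named, and the point at 1.67 on the left is Mt2.

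Carboxylesterases act beside other enzymes that cleave neutral lipids. Of 16 such genes, from the lipases of lipid stores to those of the vessel wall, 13 were tested, with 6 below 0, 7 above 0 and a median log2 fold change of 0.00. Only Lpl, the lipoprotein lipase, passed the limit of the study, on the higher side. It was at 21.6 and 27.6 CPM in the controls and at 66.1 and 52.4 CPM in mice 3 and 4 (log2 fold change 1.27, SE 0.176, edgeR adjusted p = 0.0920). The adjusted p of Lpl was under 0.05 with the edgeR exact test (2.59e-06) and the DESeq2 Wald test (8.76e-06). It was also under 0.05 with no filter on low counts (6.73e-05) and no scaling for library size (0.000112). It was over 0.05 with limma-voom (0.0785), the robust quasi-likelihood test (0.0597) and DESeq2 size factors (0.0963). Upper quartile factors (0.112) and a filter of at least 10 counts in every mouse (0.0744) also left it over 0.05. With 1 mouse left out, the log2 fold change of Lpl lay between 1.075 and 1.455.

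Genes of lipid droplets and VLDL assembly, the compartments between which the endoplasmic reticulum lipases work, were tested in full, 22 of 22. None passed the limit of the study, the estimates ran from -0.32 to 0.47, and the median was 0.07. Of 17 other hydrolases of drugs and esters, such as epoxide hydrolases and paraoxonases, all were tested, none passed that limit, and the median was 0.08.

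Some Ces2 genes are known targets of the xenobiotic receptors CAR and PXR, and 21 genes of that response were tested. The median log2 fold change was 0.01, with 9 below 0 and 12 above 0, and no gene of the list was lower past the limit of the study. On the higher side 2 passed. Slco1a4, an uptake transporter of organic anions, was at 17.3 and 11.6 CPM in the controls and at 24.4 and 28.6 CPM in mice 3 and 4 (log2 fold change 0.88, edgeR adjusted p = 0.312), and it was under the limit, at 0.62, without control mouse 2 and, at 0.76, without mouse 4. Gstm3, a glutathione transferase, was at 14.6 and 20.2 CPM in the controls and at 45.4 and 20.8 CPM in mice 3 and 4 (log2 fold change 0.92, edgeR adjusted p = 0.577), and its value rested on mouse 3, without which it was 0.24. The value of Gstm3 was also under the limit without control mouse 1 (0.69) and with limma-voom (0.81). Without mouse 4 it was 1.38.

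The genes whose pattern over the 4 mice was most like that of Ces2b were noncoding. Likeness was the root mean square difference between the log2 CPM of a gene and of Ces2b, each centred on its own mean. The closest were A430018G15Rik (0.228), the lincRNA C730036E19Rik (0.318) and the processed pseudogene Gm43802 (0.324). Their counts in mice 1 to 4 were 40, 52, 7 and 15 for A430018G15Rik, 161, 159, 49 and 66 for C730036E19Rik, and 18, 15, 4 and 5 for Gm43802. None of them is on chromosome 8.

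Markers of other cells of the liver, and of tissues that also make carboxylesterases, were summed in each mouse beside these results. Kupffer cell and macrophage markers came to 281 and 296 CPM in the controls and 332 and 309 CPM in mice 3 and 4, with 9 of 12 tested above 0. Endothelial markers came to 322 and 280 CPM against 362 and 317 CPM, with 9 of 10 above 0, and stellate cell and fibroblast markers to 215 and 208 CPM against 219.5 and 286 CPM, with 8 of 10 above 0. Over all 13001 genes tested, 6544 were above 0. The endothelial sums overlapped between the groups, and the macrophage and stellate cell sums did not. An unadjusted p under 0.05 on the higher side in the edgeR quasi-likelihood test was found for 2 stellate cell and fibroblast markers and for 525 of all genes. No gene of these 3 lists passed the limit of the study, and their part in the differences of the carboxylesterases was not tested.

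Cholangiocyte markers (67.7 and 44.1 CPM against 53.1 and 63.1 CPM) and leukocyte markers (8.43 and 13.7 CPM against 14.7 and 13.1 CPM) had overlapping sums. Of the 6 kidney markers 4 had no count in any mouse, and their sum was at most 0.226 CPM. Of 8 intestine markers 4 had no count in any mouse and 1, Fabp2, which the liver also expresses, was tested, with a log2 fold change of 0.36. Of 8 pancreas markers 2 had no count in any mouse and 1, Cela1, was tested. Their sum was 9.63 and 9.63 CPM in the controls and 12.8 and 20.6 CPM in mice 3 and 4. Nearly all of it was Cela1, at 9.63 and 9.63 CPM in the controls and 11.4 and 20.2 CPM in mice 3 and 4.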

How the data were processed

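Total liver RNA of 4 mice was sequenced. The authors deposited whole-number counts of reads for 46603 Ensembl genes, 1 column for each mouse, without normalization, and all columns were used. The submitters' processing notes name RSEM and GRCm38, without version or role. The aligner, annotation and use of strand are not given in the sources used here. RSEM divides reads that match several genes by estimate, which bears on near copies such as Ces3a and Ces3b, and the sources do not say whether its estimates were rounded. Symbols were matched for 46005 identifiers, and coordinates and transcript models came from GENCODE M21 (GRCm38).

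Counts were filtered with the edgeR defaults (at least 10 counts and a total of 15) and TMM-scaled (factors 0.957 to 1.04). The groups were compared with the edgeR 4.0.16 quasi-likelihood test (R 4.3.3), with Benjamini-Hochberg adjustment over 13001 genes. With 2 mice against 2 an exact permutation test cannot go below p = 0.333. Each pair of libraries differed by more than the sampling noise (chi-square per degree of freedom 23.0 to 35.7). Lengths are those of the longest transcript of a gene in GENCODE M21, and coding sequences those of the longest coding model. Alternatives were DESeq2 1.42.0, limma-voom (limma 3.58.1), edgeR's exact and robust tests, other scalings and filters, and leaving out each mouse. Sequences were read and aligned with python 3.11.15 and biopython 1.88 from GENCODE M21 and RefSeq (GRCm38.p6). Identity between members is given for coding bases, since protein sequences were not used here.

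The members and the gene lists were chosen with earlier results of these data known. Besides the members, the genes named are the other Ces genes, Elavl1, up to 3 genes of each list past the limit of the study with the smallest p, and the 3 genes most like Ces2b. Mt2, Alb, Fabp2, Cela1 and Gm7208 are outside this rule and were named after their values were seen.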

Additional observations from a re-analysis of the deposited data

How the results depend on the processing

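Over the other scalings, filters and tests, the direction of every member held except with no scaling for library size. With 2 mice a group and whole-liver RNA, precision is limited by the number of mice, and for Ces2b also by counts of 14 to 81. No scaling for library size, under which the median of all genes was 0.31, gave log2 fold changes of 0.25 for Ces1c, 0.11 for Ces1d, 0.20 for Ces1e, 0.18 for Ces1f, 0.19 for Ces2a, 0.21 for Ces2e and 0.24 for Ces2g, and -1.93 for Ces2b. Summed log2 ratios were then 0.25 for Ces1, 0.19 for Ces2, -0.26 for Ces3 and 0.071 for all 10. Upper quartile factors gave -0.25 for all 10.

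An adjusted p of 0.05 was passed by 1 member with no scaling (Ces2b), 1 with the edgeR exact test (Ces2b, -2.25), 2 with no filter on low counts (Ces2b, -2.26, and Ces3b, -0.73) and 3 with the DESeq2 Wald test (Ces2b, -2.26, Ces3a, -0.56, and Ces3b, -0.72), against 0 in the edgeR quasi-likelihood test. The cause was not tested. Over all genes these settings called 155, 119, 161 and 85 genes, and the robust quasi-likelihood test called 8, against 3. With no scaling 3 members were below 0. Genes past the limit of the study were 61 lower and 510 higher with no scaling, and 264 lower and 262 higher with no filter, where more genes were tested, against 119 and 157.

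The other Ces genes past that limit were 2 with no filter, with at least 10 counts in every mouse, with the DESeq2 Wald test and with the edgeR exact test, against 1. The neutral lipid hydrolases past it were 2 with no filter, against 1. The CAR and PXR targets past it were 4 with no scaling and 1 with limma-voom or the robust test, against 2. By raw counts without length the share of Ces2e was 4.37%.

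Leaving out 1 mouse, which assumes that the lone mouse varies like the other group, gave log2 fold changes of -0.15 to 0.038 for Ces1c, -0.41 to 0.038 for Ces1d, -0.23 to 0.020 for Ces1e, -0.36 to 0.11 for Ces1f, -0.29 to 0.084 for Ces2e, -0.20 to 0.038 for Ces2g, -0.84 to -0.11 for Ces2c, -1.07 to -0.82 for Ces1b, 0.13 to 0.75 for Ces1g, -0.28 to -0.028 for Ces2a, -2.53 to -1.91 for Ces2b, -0.65 to -0.48 for Ces3a and -0.91 to -0.49 for Ces3b. The summed log2 ratio of the Ces2 members ranged from -0.23 to -0.035. Between 6 and 9 members were then below 0, between 0 and 1 passed an adjusted p of 0.05 and between 1 and 2 were lower past the limit of the study. These 2, Ces2b and Ces3b, came without control mouse 2. Over all genes the calls ranged from 0 (without mouse 3) to 73 (without control mouse 2) by adjusted p, from 139 to 232 lower and from 119 to 274 higher past that limit. Past it lay between 0 and 1 gene of lipid droplets and VLDL assembly, between 0 and 3 other hydrolases and between 1 and 2 CAR and PXR targets. No paired analysis was possible because the groups share no replicate numbers.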
